A study of Homo sapiens with 12 samples.

Results

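The constitutive proteasome was followed through the RNA levels of 32 genes, taken by their symbols out of 25268 gene symbols. They comprised 14 genes of the core particle, namely the alpha ring (PSMA1 to PSMA7) and the beta ring (PSMB1 to PSMB7), and 18 genes grouped with the regulatory particle. The latter were the 6 ATPases of the base (PSMC1 to PSMC6), 3 other base subunits (PSMD1, PSMD2 and PSMD4), 8 lid subunits (PSMD3, PSMD6, PSMD7, PSMD8, PSMD11, PSMD12, PSMD13 and PSMD14) and PSMD5, a chaperone of base assembly that is not itself a subunit of the mature particle. All 32 were listed and all 32 had a mean of at least 0.5 FPKM (the fragments of a gene relative to its length and to all mapped fragments), which was the minimum for testing and was met by 14676 genes.

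HEK293 cells, an established line from human embryonic kidney, were transiently transfected with 2 µg of pCMV6-HIS-HA-RBMX, which expresses tagged RBMX, an RNA-binding protein of the hnRNP family, or with the mock empty vector. The mock cells, titled WT, served as control. From each of 6 cultures, 3 per vector, RNA was taken after 48 h from a lysate cleared of nuclei and separated on a sucrose gradient, and all cultures had received cycloheximide before lysis to hold ribosomes on their mRNAs. Polysomal RNA (POL) came from the fractions with several ribosomes per mRNA and total RNA (TOT) from a pool of all fractions of the same gradient, which gave 12 libraries of 500 ng RNA each. Transient transfection can leave a mixture of cells with and without the plasmid, and in bulk RNA fewer cells carrying a transcript and less of it per cell cannot be told apart.

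The proteasome degrades proteins that carry ubiquitin chains. Its core is a barrel of stacked alpha and beta rings, in which PSMB6, PSMB7 and PSMB5 carry the caspase-like, trypsin-like and chymotrypsin-like sites. The regulatory particle caps the barrel. Its lid subunit PSMD14 removes ubiquitin, PSMD2 and PSMD4 bind ubiquitin or the factors that deliver it, and the ATPase ring unfolds the substrate. When proteasome activity falls, the transcription factor NFE2L1 is known to raise subunit genes together through antioxidant response elements in their promoters.

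Because genes of both particles are known targets of this factor, their promoters were searched for the core of that element, TGACNNNGC, on both strands of RefSeq promoters (GRCh38.p14, 250 bases before to 50 after each start). Promoters were found for 27 of the 32 genes, and 8 of these 27 held the motif (29.6%), against 16.1% of all 27305 genes in that set. It was present in 2 of 10 core genes (PSMA4 and PSMB3) and in 6 of 17 genes of the regulatory particle (PSMC4, PSMC5, PSMD1, PSMD3, PSMD5 and PSMD12). Of the matches before the start site, 4 are shown on the gene's strand with the motif in capitals, from 2 core and 2 lid genes, so that both particles can be compared.
PSMA4: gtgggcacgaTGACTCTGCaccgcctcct
PSMB3: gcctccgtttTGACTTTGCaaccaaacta
PSMD3: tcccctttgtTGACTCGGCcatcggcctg
PSMD12: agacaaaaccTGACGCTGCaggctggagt
The windows lie at chr15:78540650-78540678 (plus strand), chr17:38752627-38752655 (plus), chr17:39980760-39980788 (plus) and chr17:67366724-67366752 (minus), and the motif begins at −126, −104, −37 and −165 from the start site. A match describes the letters of the promoter and not a bound site.

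RBMX itself followed the labels. Its FPKM was 147, 145 and 108 in the control total libraries against 1731, 2073 and 1460 after RBMX transfection, and 146, 148 and 87.4 against 1167, 1328 and 1072 in polysomal RNA. The log2 fold changes of 3.71 and 3.25 passed the test (limma, adjusted p = 0.00269 and 0.0415). The 8 markers of HEK293 cells (PAX2, LHX1, EYA1, NEFL, NEFM, VIM, KRT8 and KRT18) were above 0 in every library, and their summed FPKM was 846 to 986 in 10 libraries but 443 and 411 in the total and polysomal libraries of control culture 3. None of 6 markers of blood, liver, endothelial and connective tissue cells reached the minimum, and their sums ran from 0.0526 to 0.325 FPKM. Small RNA genes made up 40.6% to 72.9% of the summed FPKM, with 72.9% and 64.5% in control culture 3, each the highest share of its group.

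The proteasome genes were highly expressed. Their median of 137 FPKM compared with 11.5 over the tested genes other than small RNA genes, and core genes (median 250, 42.0 to 431) stood above those of the regulatory particle (median 91.2, 3.40 to 309). FPKM is scaled by length, and the core transcripts are shorter, with a median for the longest annotated transcript of 1012.5 bases against 2074.5 for the regulatory genes and 3324 for all.

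**Figure D1:**
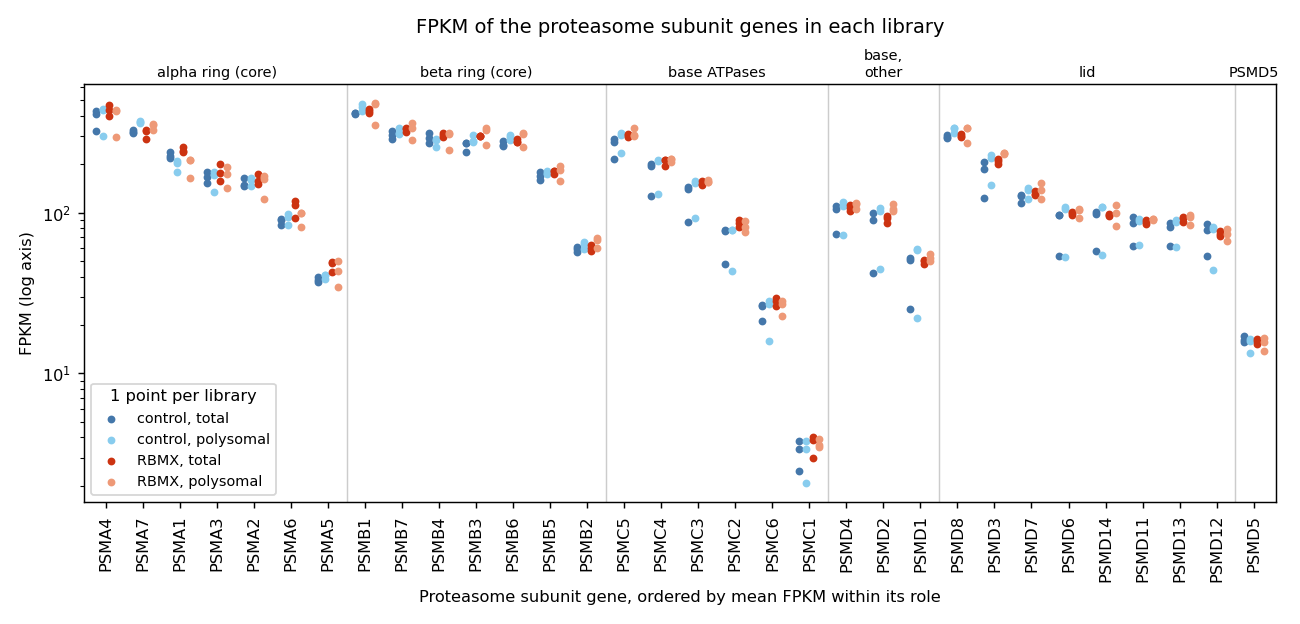
FPKM (log axis) of the 32 genes, ordered by mean within each role, with 1 point per library coloured by group. The genes ran from 3.40 (PSMC1) to 431 (PSMB1), and in most base and lid genes 1 dark blue and 1 light blue point, both of control culture 3, lay under the rest.

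In the beta ring PSMB1, a non-catalytic subunit, was the highest of the 32 genes. PSMB1 (chromosome 6, 170535117 to 170553341, GRCh38) had 407, 415 and 414 FPKM in control total, 415, 428 and 438 in RBMX total, 470, 455 and 426 in control polysomal and 470, 349 and 481 in RBMX polysomal RNA. It ranked first among the 32 in 9 libraries and PSMA4 in the other 3.

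The catalytic genes lay lower, in the order PSMB7, PSMB6 and PSMB5. PSMB7 had 303, 321 and 287 FPKM in control total, 314, 329 and 337 in RBMX total, 308, 336 and 314 in control polysomal and 335, 284 and 363 in RBMX polysomal RNA. PSMB6 had 264, 280 and 260, then 274, 276 and 285, then 281, 293 and 303, and last 312, 257 and 307 FPKM in the same order of groups. PSMB5 had 169, 178 and 159, then 174, 180 and 181, then 176, 182 and 172, and last 194, 157 and 183 FPKM. In each of these genes the lowest polysomal library was replicate 2 of RBMX. The other genes of the beta ring were PSMB4 (mean 289 FPKM), PSMB3 (288) and PSMB2 (61.9), the last with a transcript of 4217 bases, the longest of that ring.

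The alpha ring, whose subunits gate the entry of the barrel, spanned a wider range. PSMA4 (399 FPKM) and PSMA7 (335) were highest, PSMA1 (217), PSMA3 (169) and PSMA2 (155) intermediate, and PSMA6 (95.4) and PSMA5 (42.0) lowest. GENCODE names 4 pseudogenes after PSMA6 and 3 after PSMA2, and reads shared with them could have been split.

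Among the ATPases PSMC5 (289 FPKM), PSMC4 (194), PSMC3 (142) and PSMC2 (75.2) were followed by PSMC6 (25.6). PSMC1 (chromosome 14, 90256495 to 90275429) was the lowest gene in 12 of 12 libraries, with 3.37, 3.80 and 2.47 FPKM in control total, 3.87, 4.03 and 2.97 in RBMX total, 3.37, 3.81 and 2.08 in control polysomal and 3.90, 3.51 and 3.59 in RBMX polysomal RNA. Its level is uncertain, because 13 pseudogenes are named after it and it overlaps NRDE2 on the opposite strand. The ATPases act as a ring with 1 copy of each. Their FPKM values differed up to 85.1-fold, a ratio that rests on the uncertain level of PSMC1, and the next lowest was PSMC6 at 25.6.

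Of the 8 lid genes taken here PSMD8 was highest with 309 FPKM, followed by PSMD3 (203) and PSMD7 (132). The other 5 lay between 71.8 and 92.5. SEM1, kept with the associated proteins below, is not among these and had a mean of 861 FPKM. The deubiquitinase gene PSMD14 had 97.8, 100 and 57.9 FPKM in control total, 94.9, 96.3 and 97.8 in RBMX total, 109, 108 and 54.2 in control polysomal and 99.7, 82.8 and 112 in RBMX polysomal RNA. Only the third control culture stood far from the rest in this gene. PSMD4 (103), PSMD2 (89.9) and PSMD1 (47.7) of the base and PSMD5 (15.7) completed the set, and PSMD1 and PSMD5 lay below every lid gene. In all, 7 of the 32 genes overlap another listed gene on the opposite strand (PSMA2, PSMC1, PSMC2, PSMC5, PSMD1, PSMD6 and PSMD13), and the library kit does not keep the strand.

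The order of the genes was kept between replicates, with Spearman correlations of 0.961 to 0.998 over the 32 genes within groups. These are correlations across genes of unequal level, which are not independent replicates.

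Control culture 3 stood apart, with its largest deviations in the regulatory particle. In its total library 17 of the 18 regulatory genes lay below the mean of the other 2 control libraries on the log2(FPKM + 1) scale, and in its polysomal library again 17 of 18. Of the 14 core genes 11 and 12 lay below as well. The median deviation of the regulatory genes was −0.56 and −0.65, that of the core genes −0.09 and −0.11, and that of all tested genes 0.01 and 0.00. The deviation was deepest in PSMD2, with 89.5, 99.1 and 42.1 FPKM in control total and 102, 107 and 44.8 in control polysomal RNA, and in PSMD1, with 50.8, 51.9 and 25.1 and then 58.1, 59.1 and 22.0 FPKM. Both act as scaffolds of the base, and in both the third culture was at less than the level of any other library.

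A total of 11 regulatory genes lay at least 0.5 below the other cultures in both libraries of culture 3 (PSMC2, PSMC3, PSMC4, PSMD1, PSMD2, PSMD3, PSMD4, PSMD6, PSMD11, PSMD12 and PSMD14), against 0 of 14 core genes and 7.96% of all genes tested. The other cultures of either vector had 0 such proteasome genes and 0.313% to 1.75% of all genes. PSMD8 was an exception within the lid, with 291, 301 and 296 FPKM in control total RNA. PSMD5 deviated by −0.03 in total and −0.27 in polysomal RNA, and PSMD7 by −0.16 and −0.20. Of the genes whose promoter motif is shown, PSMD3 had 186, 206 and 123, PSMD12 had 78.0, 84.9 and 54.0 and PSMB3 had 269, 272 and 239 FPKM in control total RNA. Of the 11 genes named above PSMD4 had no promoter to search, and the motif was found in 4 of the others (PSMC4, PSMD1, PSMD3 and PSMD12). In PSMC4 and PSMD1 it lay after the start site. The shares were 29.6% of all searched proteasome genes and 16.1% of all genes. A link between the motif and the deviation of culture 3 was not tested. Among the core genes PSMA4 came nearest, with 427, 412 and 319 FPKM in control total and 436, 442 and 299 in control polysomal RNA.

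All tested genes with transcripts of 2000 to 3000 bases, the length range of the regulatory median, had a median deviation of 0.01 and 0.03 in the same libraries. The core minus regulatory difference of culture 3 was 1.88 and 1.78 after a correction of each library for GC content and length, against 1.98 and 1.87 before. Assembly factors of the proteasome (PSMG1 to PSMG4, POMP, PSMD9, PSMD10 and PAAF1) had a median deviation of 0.13 and 0.16 there, and only 2 of the 8 lay below. Of 9 associated proteins, named further on, 8 lay below in each library, with medians of −0.18 and −0.25. SEM1 lay above, with 938, 931 and 1086 FPKM in control total RNA. The regulators NFE2L1, NFE2L2, DDI2, NGLY1 and VCP had medians of −0.53 and −0.45, with 4 and 5 of the 5 below. The summed HEK293 markers were lower and the share of small RNA genes higher in the same libraries, as given above. Of the 8 markers 6 lay below the other cultures in each fraction, with VIM at 522, 549 and 248 FPKM in control total RNA, whereas LHX1 had 8.16, 7.82 and 9.06. The part of length, GC content, the markers' change and small RNA in the proteasome values was not tested.

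**Figure D2:**
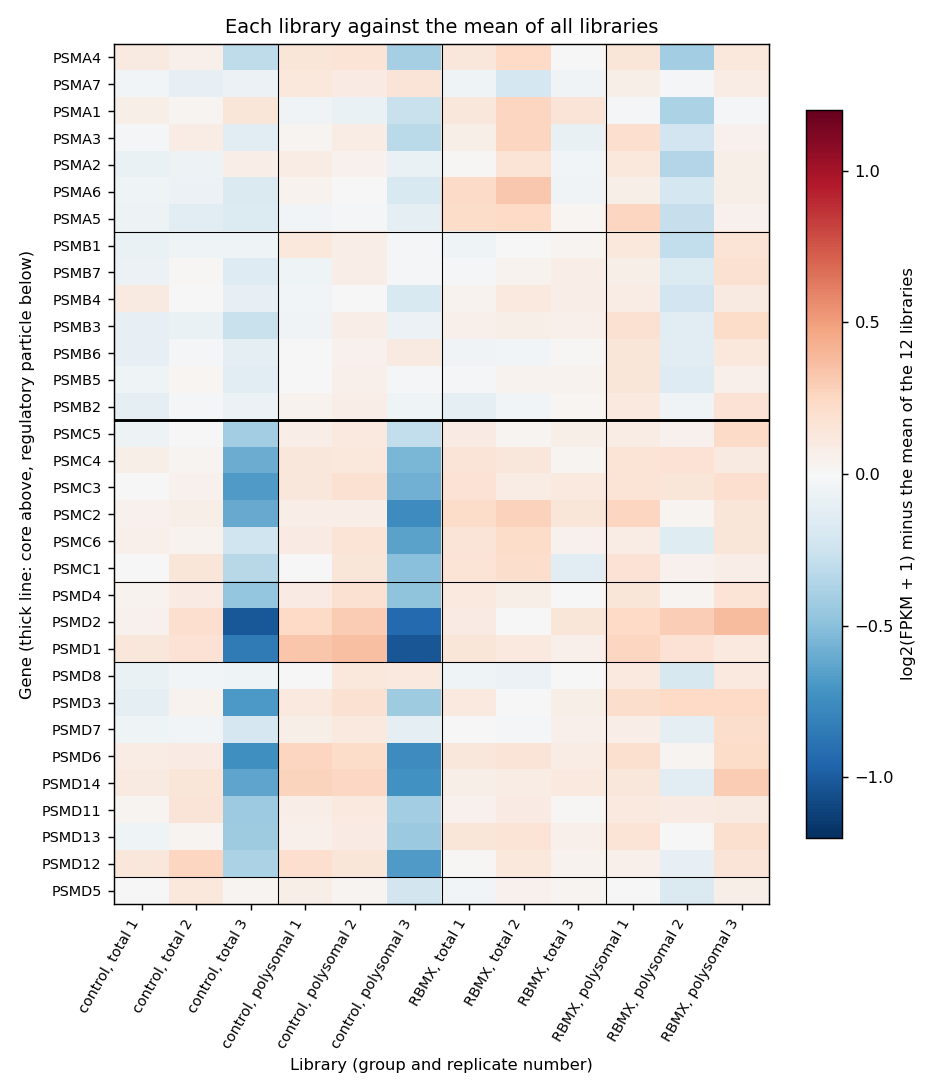
Colour gives log2(FPKM + 1) of each gene (rows, core above the thick line and regulatory particle below it) in each of the 12 libraries (columns) minus the gene's mean over all libraries. The 2 columns of control culture 3 are blue through most of the regulatory genes, and replicate 2 of RBMX polysomal RNA is blue through the core genes.

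A smaller deviation of the opposite kind was seen in replicate 2 of RBMX polysomal RNA. All 14 core genes lay below the mean of the other 2 libraries there, by a median of −0.33 and most in PSMA4 (436, 296 and 430 FPKM), while 16 of the 18 regulatory genes lay below with a median of −0.14 and all tested genes had −0.02. The 8 assembly factors also lay below, with a median of −0.36. Short transcripts were lower in this library as well, with a median of −0.20 below 1000 bases, and their part in the result was not tested.

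The median log2 level of the core minus that of the regulatory genes was 1.39, 1.31 and 1.98 in control total and 1.43, 1.47 and 1.44 in RBMX total RNA. It was 1.19, 1.18 and 1.87 in control polysomal and 1.34, 1.13 and 1.23 in RBMX polysomal RNA. The group means were 1.56 ± 0.36, 1.45 ± 0.024, 1.41 ± 0.39 and 1.23 ± 0.10 (SD, n = 3 each) in that order. Control and RBMX cells overlapped in either fraction, and in both control groups replicate 3 was the highest.

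With the libraries paired by replicate number, this difference was smaller in polysomal than in total RNA in 6 of 6 cultures, by −0.20, −0.13 and −0.11 in control and −0.09, −0.34 and −0.21 in RBMX cells. It kept this sign in 6 of 6 after the correction for GC content and length and in 5 of 6 after quantile normalization, but with means in place of medians only in 4 of 6. The genes' own log2 fold changes of polysomal against total RNA had medians of 0.07 in core and 0.06 in regulatory genes of control cells. In RBMX cells these were −0.04 and 0.04. The pairing by number is uncertain in RBMX cells, where deviations of the 32 genes in total and polysomal RNA correlated with −0.143, −0.447 and 0.303.

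**Figure D3:**
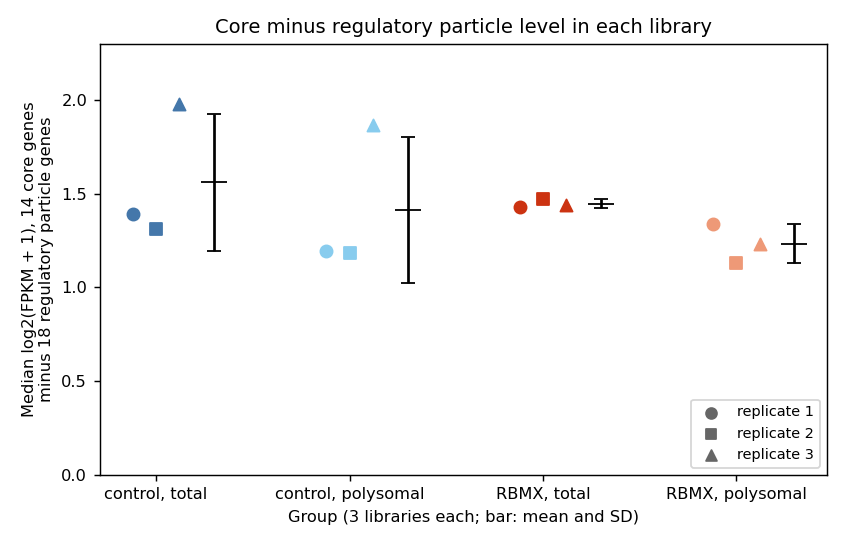
The median log2(FPKM + 1) of the 14 core genes minus that of the 18 regulatory particle genes (vertical axis) is shown for each library by group, with the replicate number as symbol and the group mean with its SD as a bar. Replicate 3 of both control groups lies at 1.98 and 1.87, and the other 10 libraries lie between 1.13 and 1.47.

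The effect of RBMX on the level of the proteasome genes was tested in total RNA first. None of the 32 genes passed the test (limma, adjusted p 0.182 to 0.910), against 24 of 14676 genes or 0.164%. The log2 fold change was positive in 30 of 32 genes with a median of 0.15, whereas that of all tested genes was 0.00. It was 0.22 in the regulatory and 0.09 in the core genes, and 0.25 in the ATPases, 0.29 in the other base genes, 0.18 in the lid, 0.10 in the alpha and 0.08 in the beta ring.

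At an unadjusted p under 0.05 there were 2 genes, PSMA5 and PSMB3, against 18.8% of all genes. The groups did not overlap in 9 genes, all higher after RBMX (PSMA5, PSMA6, PSMB1, PSMB3, PSMC2, PSMC3, PSMC5, PSMD7 and PSMD13), against 11.9% of all genes higher, 15.4% lower and 27.3% in either direction, while 0 of the 32 lay wholly lower. Without replicate 3 of the control, 11 were wholly higher and 1 lower, against 20.5% and 26.5%. PSMB1 was among the 9 only narrowly, at 415.07 FPKM in the highest control and 415.13 in the lowest RBMX library.

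PSMA5 had 39.9, 37.8 and 37.2 FPKM in control and 48.7, 49.4 and 42.5 in RBMX cells, so that every RBMX library lay above every control library. Its log2 fold change was 0.28 (SE 0.075, limma, adjusted p = 0.182), and 0.26 without control replicate 3.

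The ATPase gene PSMC2 had the largest difference, with 76.3, 77.4 and 48.1 FPKM in control and 85.7, 89.2 and 81.8 in RBMX cells. The log2 fold change was 0.37 (SE 0.20, limma, adjusted p = 0.358) and was 0.15 without control replicate 3. PSMC3 behaved likewise, with 140, 144 and 86.8 against 157, 148 and 152 FPKM, a log2 fold change of 0.33 (SE 0.21, limma, adjusted p = 0.429) and 0.10 without that replicate. In both genes most of the difference rested on 1 control library.

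PSMD2 (chromosome 3, 184298709 to 184309054) had 89.5, 99.1 and 42.1 against 92.3, 85.9 and 95.7 FPKM. Its log2 fold change of 0.34 (SE 0.33, limma, adjusted p = 0.608) became −0.05 without control replicate 3. PSMD14 had a log2 fold change of 0.22 (SE 0.22, limma, adjusted p = 0.624), which became −0.04.

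The catalytic genes differed by less than the regulatory median. The log2 fold change was 0.08 for PSMB5 (95% interval −0.08 to 0.24), 0.05 for PSMB6 (−0.10 to 0.21) and 0.11 for PSMB7 (−0.08 to 0.29), with adjusted p of 0.550, 0.672 and 0.472 by limma. The lowest values of all were PSMD5 at −0.04 and PSMA7 at −0.03.

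Leaving out control replicate 3 brought the regulatory median to 0.03, with 11 of 18 positive, and the core median to 0.05, with 13 of 14 positive. The larger shift of the regulatory genes was present with that library and not without it. After quantile normalization the core median was −0.03, with 4 of 14 positive.

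**Figure D4:**
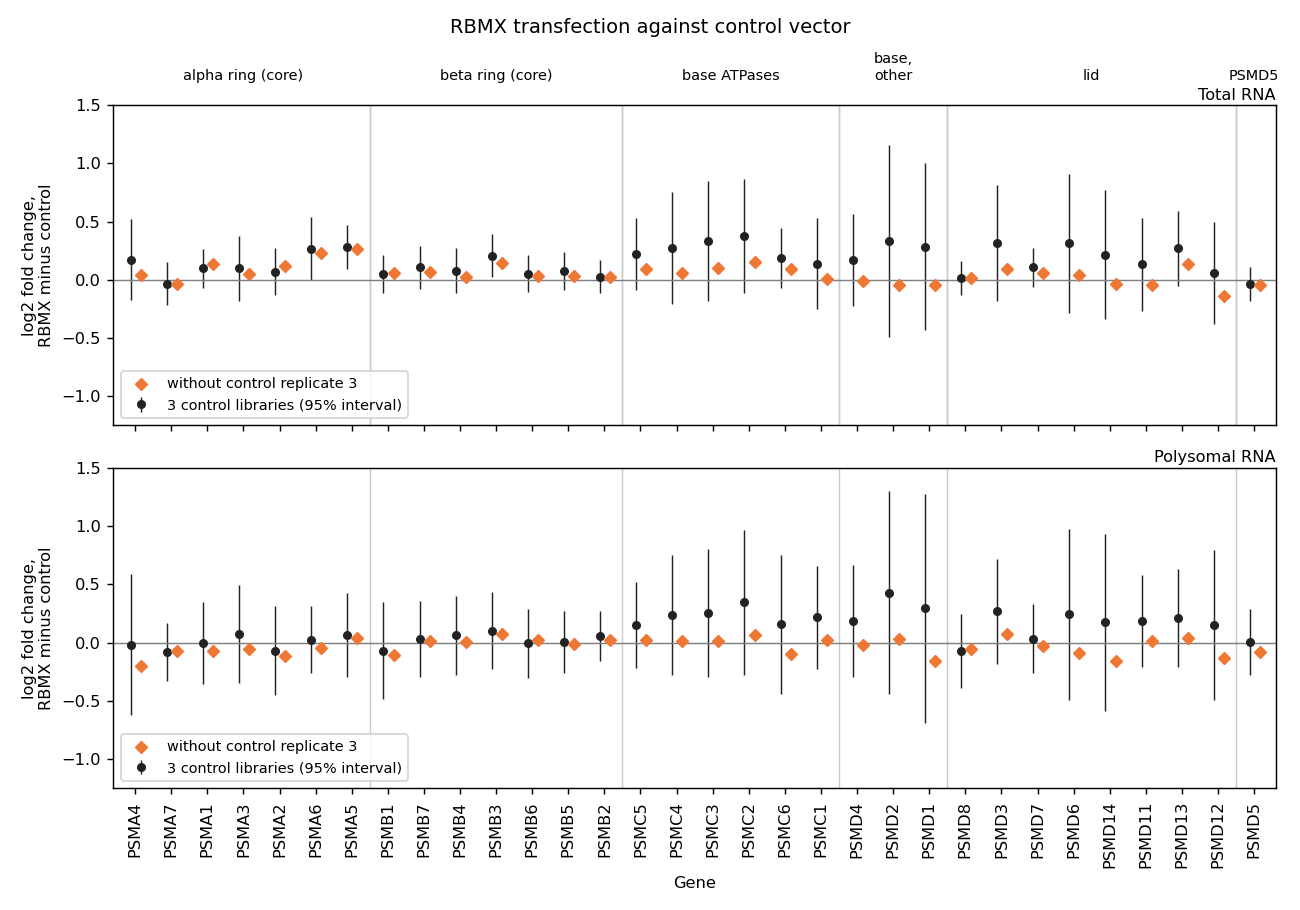
Log2 fold change of each gene after RBMX transfection (vertical axis) in total RNA (upper panel) and polysomal RNA (lower panel), with all 3 control libraries (black, 95% interval) and without control replicate 3 (orange). The regulatory genes are shifted upwards with all libraries, by medians of 0.22 and 0.20, and lie around 0 without that replicate.

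In polysomal RNA none of the 32 genes passed either (limma, adjusted p 0.561 to 0.996), against 7 genes or 0.0477%, and 0 had an unadjusted p under 0.05, against 11.7%. The log2 fold change was positive in 25 genes with a median of 0.09, which was 0.20 in the regulatory and 0.01 in the core genes. Only PSMD3 was wholly higher and only PSMA7 wholly lower, against 10.0% and 12.5% of all genes and 22.5% in either direction.

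The lid gene PSMD3 had 217, 227 and 149 FPKM in control and 231, 236 and 236 in RBMX polysomal RNA. Its log2 fold change was 0.27 (SE 0.18, limma, adjusted p = 0.561), and 0.08 without control replicate 3. PSMA7 had 364, 358 and 371 FPKM in control and 350, 328 and 354 in RBMX cells, with a log2 fold change of −0.08 (SE 0.099, limma, adjusted p = 0.724). Its sign turned to 0.01 after the correction for GC content and length.

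PSMD2 had the largest polysomal difference, with 102, 107 and 44.8 against 102, 106 and 112 FPKM. The log2 fold change of 0.43 (SE 0.35, limma, adjusted p = 0.620) was 0.03 without control replicate 3. PSMD14 went from 0.17 to −0.15 without it. Over all 32 genes that replicate moved the median to −0.02, and that of the regulatory genes to −0.01.

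Without replicate 2 of RBMX the polysomal core median was instead 0.12, and 12 genes were wholly higher, 9 of them core genes, against 12.7% of all genes. The call did not change, and 0 of 32 passed without either library.

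Polysomal RNA was then compared with total RNA within control cells, which asks how far an mRNA is loaded with ribosomes relative to its level. None of the 32 genes passed the test (limma, adjusted p 0.597 to 1), against 12 genes or 0.0818%. The median log2 fold change was 0.07 in core and 0.06 in regulatory genes, with 24 of 32 positive. In 5 genes polysomal RNA was wholly higher (PSMA7, PSMB1, PSMB3, PSMB6 and PSMD8) and in 1 wholly lower (PSMA1), against 7.63% and 7.31% of all genes and 14.9% in either direction. The only gene with an unadjusted p under 0.05 was PSMA7, against 8.04%. Without both libraries of culture 3, 22 genes were wholly higher and 2 wholly lower, against 33.1% and 26% of all genes. Of these 22, 13 were among the 18 regulatory genes. Without only its total library 5 were wholly higher and 2 lower, against 13.6% and 10.7%.

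PSMA7 had 326, 312 and 317 FPKM in total and 364, 358 and 371 in polysomal RNA of control cells, a log2 fold change of 0.19 (SE 0.070, limma, adjusted p = 0.597). PSMD8 had 291, 301 and 296 against 310, 337 and 335 FPKM, a log2 fold change of 0.14 (SE 0.074, limma, adjusted p = 0.691). PSMB3 had 269, 272 and 239 against 279, 304 and 273 FPKM, with 0.14 (SE 0.090, limma, adjusted p = 0.774). These genes were higher in polysomal RNA of each culture.

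PSMA1 went the other way, with 226, 220 and 239 FPKM in total and 209, 204 and 178 in polysomal RNA, and a log2 fold change of −0.21 (SE 0.089, limma, adjusted p = 0.633). All 3 polysomal libraries lay below all 3 total libraries.

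Total and polysomal RNA of a culture come from the same gradient and form a pair. With the culture as a block, after correcting for GC content and length, 2 genes passed, PSMA7 (0.24, SE 0.050, limma, adjusted p = 0.0350) and the lid gene PSMD7 (0.20, SE 0.044, limma, adjusted p = 0.0434), both higher in polysomal RNA. With that fit 921 of 13174 genes passed (6.99%), so that 2 of 32 is near the share of all genes. With the block alone 0 of the 32 passed.

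In RBMX cells the comparison of polysomal with total RNA again gave 0 of 32 (limma, adjusted p 0.152 to 0.993), against 196 genes or 1.34%. The median log2 fold change was 0.02, with 0.04 in regulatory and −0.04 in core genes, and −0.15 in the alpha ring, where 6 of 7 were negative. In 4 genes polysomal RNA was wholly higher (PSMA7, PSMD2, PSMD3 and PSMD11) and in PSMA1 wholly lower, against 14.6% and 16.2% of all genes and 30.8% in either direction. An unadjusted p under 0.05 was found in PSMA1, PSMD2 and PSMD3, against 23.0%.

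PSMD2 had 92.3, 85.9 and 95.7 FPKM in total and 102, 106 and 112 in polysomal RNA of RBMX cells, a log2 fold change of 0.22 (SE 0.066, limma, adjusted p = 0.152). PSMD3 had 216, 201 and 210 against 231, 236 and 236 FPKM, with 0.16 (SE 0.060, limma, adjusted p = 0.196). In both genes all 3 polysomal libraries lay above all 3 total libraries.

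PSMA7 had 323, 288 and 325 against 350, 328 and 354 FPKM, a log2 fold change of 0.14 (SE 0.085, limma, adjusted p = 0.363). PSMA1 had 236, 257 and 240 against 213, 165 and 214 FPKM, with −0.32 (SE 0.12, limma, adjusted p = 0.205) and −0.19 without replicate 2 of the polysomal libraries. With libraries paired by number over the 6 cultures, PSMA7, PSMC4, PSMD2 and PSMD3 were higher in polysomal RNA every time. PSMA1 was lower every time. The share of all genes with such a pattern was not counted, and the pairing by number is uncertain in RBMX cells.

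Without replicate 2 of the RBMX polysomal libraries 11 of 14 core genes were positive with a median of 0.06, where 5 of 14 had been. Of the 32 genes 14 were then wholly higher and 1 wholly lower, against 19.8% and 18.4% of all genes. With the culture as a block and the correction for GC content and length PSMB6 passed (0.23, SE 0.049, limma, adjusted p = 0.0497), as 1 of 32 against 9.09% of all genes, and with the block alone 0 passed.

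**Figure D5:**
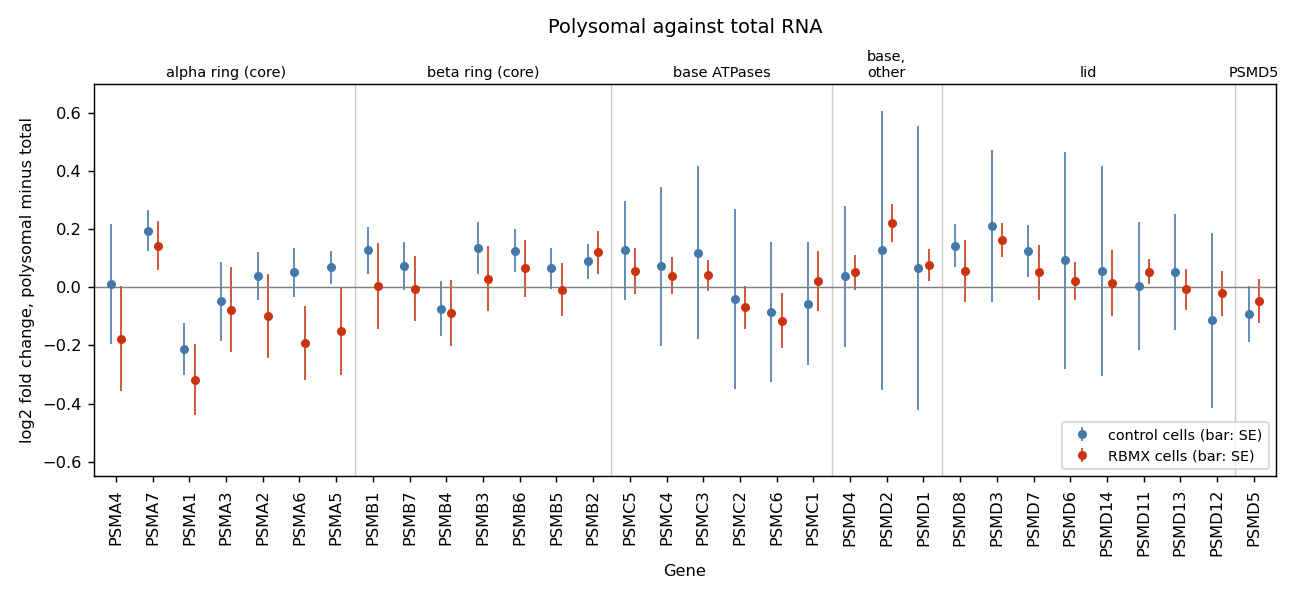
Log2 fold change of polysomal against total RNA (vertical axis, bars are SE) of each gene in control cells (blue) and RBMX cells (red). PSMA7 lies above 0 and PSMA1 below 0 in both, and the alpha ring genes of RBMX cells lie mostly below 0 with a median of −0.15.

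Whether RBMX changed the polysomal share of the proteasome mRNAs was tested as the difference of its polysomal and total effects. None of the 32 genes passed (limma, adjusted p of 1.00 in each), against 3 genes or 0.0204%, and 0 had an unadjusted p under 0.05, against 0.600%. The difference was negative in 24 genes with a median of −0.06, and in 7 of 7 genes of the alpha ring with a median of −0.14. It was lowest in PSMA6 (−0.24, 95% interval −0.61 to 0.12) and PSMA5 (−0.22, −0.60 to 0.16). Without replicate 2 of RBMX polysomal RNA the median over the 32 genes was 0.02, and without replicate 3 of control polysomal RNA it was −0.19 with all 32 negative.

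The genes that serve the proteasome were taken as lists beside the subunits. Of the 8 assembly factors 0 passed in any of the 5 comparisons, and their median log2 fold change with RBMX was 0.06 in total and −0.06 in polysomal RNA. The 9 associated proteins (ADRM1, SEM1, UCHL5, USP14, UBE3C, PSMF1, PSME3, PSME4 and KIAA0368) had medians of −0.04 and 0.10, and the 5 regulators of subunit transcription −0.01 and 0.27. Without control replicate 3 the polysomal medians were −0.11 for the regulators, −0.09 for the associated proteins and −0.03 for the assembly factors, and the total RNA medians −0.06, −0.12 and 0.10. Without RBMX polysomal replicate 2 the assembly factors had 0.01 and the regulators 0.12. Over all left-out libraries the total RNA median of the regulators ran from −0.06 to 0.17 and that of the associated proteins from −0.12 to 0.08. None of these passed in any comparison.

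The interferon-inducible immunoproteasome subunits PSMB8, PSMB9 and PSMB10 and the PA28 genes PSME1 and PSME2, which replace or cap constitutive parts, had larger differences. All 5 were higher with RBMX in both fractions, with medians of 0.54 and 0.47 and an unadjusted p under 0.05 in 5 and 3 of them, against 18.8% and 11.7% of all genes, but 0 passed after adjustment. In replicate 3 of RBMX, however, 5 of 5 lay below the mean of the other 2 RBMX libraries. The median deviation there was −0.67 in total and −0.46 in polysomal RNA. PSME1 had 113, 107 and 93.8 FPKM in control total and 170, 187 and 111 in RBMX total RNA, so that replicate 3 lay within the control range. PSMB9 had 3.16, 4.04 and 2.68 FPKM in control total and 33.6, 35.5 and 6.40 in RBMX total RNA. Its constitutive counterpart in the barrel, PSMB6, had 264, 280 and 260 against 274, 276 and 285 FPKM.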

How the data were processed

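The authors deposited 1 FPKM value per gene symbol and library. The submitters' processing notes name hg19, CASAVA 1.8, TopHat2 2.0.13, Cufflinks 2.2.1 and Cuffnorm without their roles, whereas the study's methods describe alignment to hg38 and read counts, so the build and scaling behind the FPKM values are uncertain and the depth per library is unknown. All 12 columns were matched to samples and 0 were left unmatched.

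FPKM values were analysed as log2(FPKM + 1), which understates changes of low genes such as PSMC1. With R 4.3.3 and limma 3.58.1, linear models with a trended prior (lmFit, eBayes) were fitted to the 14676 genes with a mean of at least 0.5 FPKM, on the 6 libraries of each comparison and on all 12 for the difference of effects. P-values were adjusted over all of these genes by the Benjamini-Hochberg method at 0.05. With 3 against 3 libraries an exact permutation test cannot give a two-sided p under 0.1. Fits were tested on simulated data with independent noise for each gene and library. These held no effect shared by the libraries of a culture and no outlying culture. A gene was called wholly higher or lower where the groups did not overlap.

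Coordinates, transcript lengths and GC content came from GENCODE 29 (GRCh38), with length and GC for 93.0% of the tested genes other than small RNA genes, and promoters from RefSeq. Python 3.11.15 and matplotlib 3.10.9 were used for plots. The named genes are the highest, the lowest, the catalytic genes and PSMD14, and in each comparison up to 3 per direction with the largest difference among groups that did not overlap. PSMD2, PSMD1, PSMD12, PSMA4 and the extremes of the difference of effects were added after their values were seen. The members and lists were chosen with earlier results of these data known. Some related lists are not reported here.

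The study's methods take total and polysomal RNA of a culture from a single gradient, which pairs them. Their deviations from group means correlated, over genes other than small RNA genes, with 0.605, 0.686 and 0.835 in control and 0.222, 0.0198 and 0.654 in RBMX cultures 1 to 3. In RBMX cells total RNA of culture 1 correlated more with polysomal RNA of number 2 (0.407) and that of 2 with number 1 (0.481), so that only number 3 correlated best with itself there, and over the 32 genes the same-number values were −0.143, −0.447 and 0.303 in RBMX against 0.870, 0.910 and 0.924 in control cells. Settings also tried were quantile normalization, median-ratio rescaling, a pseudocount of 0.1, a filter at 0.1 or 1 FPKM or none, a prior with no trend, a replicate block, all 12 libraries in 1 fit, a loess correction for GC content and length (span 0.3), and each library left out. Leaving out a whole culture, and the list medians with libraries left out, were added after seeing the data. The p-values of RBMX against control measure the spread between these cultures. Those for polysomal against total RNA and for the difference of effects treat the libraries of a culture as independent where no block is named. They do not measure the spread of the difference within cultures.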

Additional observations from a re-analysis of the deposited data

How the results depend on the processing

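None of the 32 genes passed the limma test in any comparison with any library left out, nor under any other setting except the replicate block with GC and length correction, where 2 passed for polysomal against total RNA in control cells and 1 in RBMX cells. The control result for PSMA7 passed under that setting with a log2 fold change of 0.24. The median log2 fold change over the 32 genes and the core minus regulatory difference moved by less than their own spread between replicates of that value, apart from RBMX cells, polysomal against total, where quantile normalization gave a median of 0.17 and a core minus regulatory difference of 0.050, GC and length correction gave a difference of 0.015 with or without the replicate block, leaving out single libraries gave −0.16 to −0.0050 and leaving out culture 2 gave 0.023. For comparisons with control cells this spread includes replicate 3, which widens it. The SD of the core minus regulatory difference was 0.36 and 0.39 in the control groups, against 0.024 and 0.10 in the RBMX groups. A move below it is therefore no sign of stability. The larger shift of the regulatory genes in total RNA was absent without that replicate, as given above, and this move still lay below the spread. The core median alone in total RNA went from 0.09 to −0.03 after quantile normalization, a move above the SD of the core median between libraries (0.019 in control, 0.033 in RBMX cells). The cause was not tested.

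In at least 1 setting the sign of the log2 fold change differed from that reported in 18 of 32 genes for the RBMX effect on total RNA, 20 for that on polysomal RNA, 19 and 20 for the fractions of control and RBMX cells, and 30 for the difference of effects. Examples are PSMB5 (−0.028), PSMB6 (−0.13) and PSMB7 (−0.081) in total RNA after quantile normalization, PSMA7 in polysomal RNA (0.012 with GC and length correction, with or without the block), and, without control replicate 3, PSMD14 and PSMD2 in total and PSMD14 in polysomal RNA, whose ranges over left-out libraries were −0.038 to 0.35, −0.045 to 0.56 and −0.15 to 0.34.

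The number of all genes past the threshold depended more on the setting. For RBMX against control in total RNA (24) it was 62 with a minimum of 0.1, 77 without a filter, 13 with the replicate block, 60 with all 12 libraries in 1 fit, 10 with GC and length correction and 19 to 178 with libraries left out, the last without RBMX replicate 3. In polysomal RNA (7) it was 14, 31, 3, 22 and 2 under the same settings, 18 with the block and GC and length correction, and 9 to 126 with libraries left out, the last without RBMX replicate 3. For polysomal against total RNA in control cells (12) the block gave 6, all 12 libraries 41, the block with GC and length correction 921, single left-out libraries 12 to 26 and left-out cultures 20, 13 and, without culture 3, 199. In RBMX cells (196) no filter gave 61, quantile normalization 70, the block 4, all 12 libraries 21 and GC and length correction 349. The block with that correction gave 1197, single left-out libraries 10 to 42 and left-out cultures 21 or 23. The count fell with each library left out. Such fits also hold fewer libraries, so the part of any 1 library in the fall cannot be told. For the difference of effects (3) the block gave 5, GC and length correction 0 with or without the block, where 0 is by limma alone, and left-out libraries 3 to 7. The block by number changed no other call for the 32 genes, and between vectors the number is no pairing. FPKM values give no depth, so no limit of detection is stated.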
